A study of Mus musculus with 5 samples.

Results

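Single-cell RNA sequencing (scRNAseq) libraries SC4 and SC5 were compared gene by gene across the genome. Both hold GFP+ cells sorted from hindlimb muscle of injured mice. Cell barcodes were taken when they held 350 to 8000 detected genes, under 20% of unique molecular identifiers (UMIs, 1 per captured RNA molecule) on mitochondrial genes and at least 1000 UMIs. This left 5589 cells of SC4 and 6201 of SC5, together 11790 of the 29831 cells that passed in the 5 libraries of the study. SC4 was prepared 3 days after a non-stabilized tibial fracture (d3 post-fracture). SC5 carries 2 conflicting conditions. Its deposited label is d5 post-fracture, while the cell numbers in the study's source data place it at d3 post-polytrauma, that is, a tibial fracture combined with mechanical injury of the adjacent muscles. The source data list more d3 post-polytrauma cells than are held by SC9, the library that carries this label, and their total for d5 post-fracture equals the barcode number of SC9. Their totals for d0 and d3 post-fracture likewise equal the barcode numbers of SC3 and SC4. The difference between SC5 and SC4 is therefore one of injury at d3 under the second reading and one of time after fracture under the first, and the libraries are called by their names below. The contrast as deposited, SC9 over SC4, is given at the end.

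All libraries came from Prx1Cre;mTmG mice on the C57Bl/6 background, aged 10 to 14 weeks, with cells of 2 mice pooled per library. In these mice a membrane GFP marks every cell that descends from Prx1-expressing limb mesenchyme, so the sort takes a lineage and not a single cell type, and d0 cells (uninjured, SC3) carry the same alleles. With 1 library per condition no replicate error could be measured. No test was made, and each interval covers counting error only.

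Mesenchymal progenitors of muscle, which include fibro-adipogenic progenitors, lie between the muscle fibres and express Pdgfra, Ly6a (Sca1), Cd34, Cxcl12 and the limb mesenchyme transcription factor Prrx1. After injury such cells divide, secrete chemokines and pass through a matrix-producing, partly contractile state marked by periostin, collagens and smooth muscle actin, from which scar, cartilage and bone can form. Blood that leaks into injured tissue releases heme, which heme oxygenase 1 breaks down into iron, biliverdin and carbon monoxide.

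Depth was similar in the libraries compared. SC4 cells had a median of 17963 UMIs and SC5 cells 15688, with medians of 3387 and 3144 genes and of 1.95% and 2.14% mitochondrial UMIs. SC3, whose levels are given for reference below, was shallower, with medians of 3640 UMIs and 1374 genes per cell. Over all retained cells SC4 gave 99943787 UMIs and SC5 103287049. Of the 5 libraries, SC3, SC4 and SC5 shared barcodes with each other (508 between SC4 and SC5, 67 of them among retained cells). Of its 2001 barcodes, SC9 shared 944 with SC10 (d5 post-polytrauma) but 0 with SC4 or SC5. Levels below are CPM (counts per 1000000), the UMIs of a gene per 1000000 UMIs of its library. The nuclear RNA Malat1 alone was at 51074.5 CPM in SC3, against 10833 in SC4 and 9442 in SC5. CPM are relative, and the part of depth and of such RNA in the differences from SC3 was not tested. Sex-linked genes set SC10 apart. Xist, an RNA of female cells, was at 1039.5, 411, 429 and 775 CPM in SC3, SC4, SC5 and SC9 but at 1.15 in SC10. Ddx3y, a gene of the Y chromosome, was at 60.4 CPM in SC10 and at 0.0771 or less in the others. The part of sex in differences from SC10 was not tested. Markers of cells outside the sorted lineage were scarce. The summed level of 12 muscle cell and muscle fibre markers was 6.87 CPM in SC4 and 12.3 in SC5, and that of 8 endothelial markers 10.6 and 17.5. The 12 hematopoietic markers summed to 35.3 CPM in SC4 and 129.9 in SC5. At least 2 of them were detected in 74 SC4 cells (1.32%) and 211 SC5 cells (3.40%). Values without those cells are given below for the genes they carry. All 5 markers of mesenchymal progenitors named above were measured in both libraries.

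Of 31055 genes in the files, 8217 had a mean of at least 5 CPM over SC4 and SC5 and are called measured. The median log2 ratio of SC5 over SC4 was -0.03, with 10% of genes below -0.38 and 10% above 0.38. At least 2-fold higher levels in SC5 were found for 131 genes (1.59% of those measured) and at least 2-fold lower levels for 93 (1.13%), together 2.73%. Differences of at least 4-fold were fewer, with 23 genes higher and 9 lower in SC5. Among genes with a mean of at least 20 CPM, the 15 with the largest ratios were Crabp1, Cd74, Hmox1, Thbd, Rarres2, Gprc5a, Isg15, Pgls, Srxn1, Ifi27l2a, Procr, Lyz2, Lpl, Penk and Ndufa4l2. The 15 with the smallest ratios were C1qtnf3, Tnn, Ddah1, Fmod, Ctgf, Ccl20, Tagln, Fabp5, Acta2, Myl9, Cilp, Cthrc1, Cpxm2, Col11a1 and Postn. The first group holds members of the oxidative stress, hematopoietic and interferon lists, and most of the second encodes extracellular matrix or contractile proteins.

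**Figure D1:**
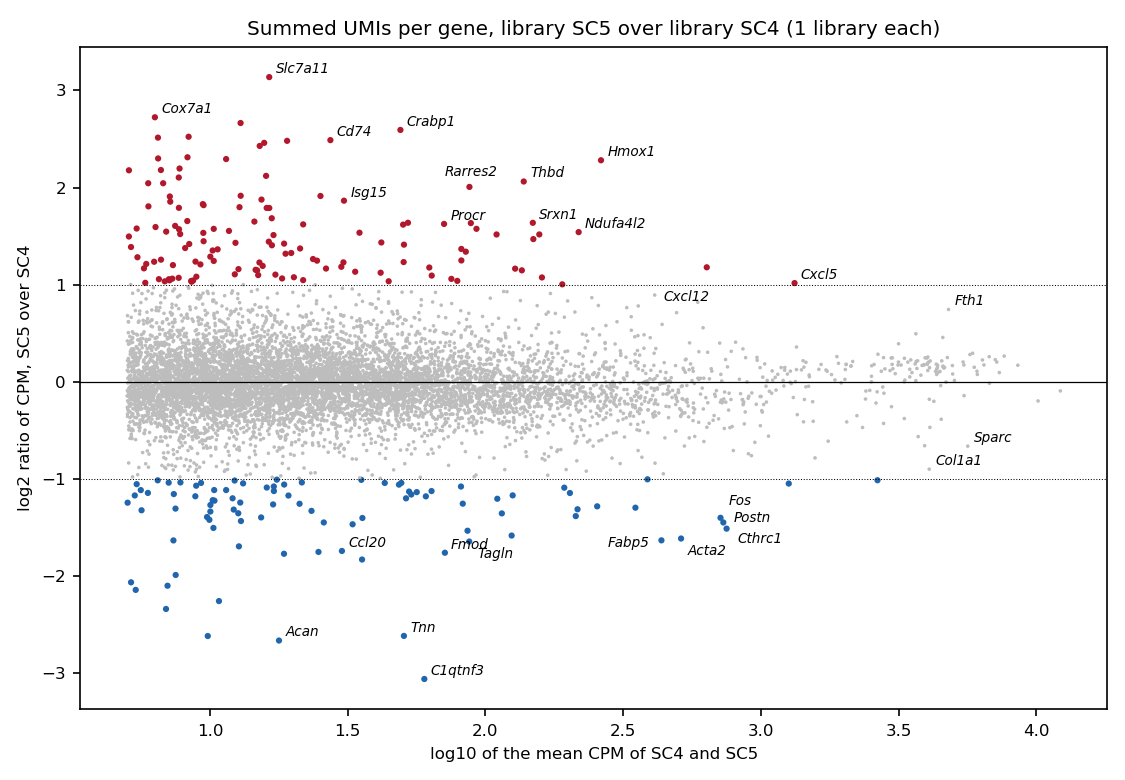
Each point is 1 of the 8217 measured genes, placed by the log10 of its mean CPM in SC4 and SC5 (x axis) and by the log2 ratio of CPM, SC5 over SC4 (y axis). Red points are the 131 genes at least 2-fold higher and blue points the 93 at least 2-fold lower in SC5, and dotted lines mark 2-fold. Hmox1 lies at 2.28 and C1qtnf3 at -3.06.

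The 6 fibrogenic genes that the study followed were all lower in SC5, with a median log2 ratio of -0.84 against -0.03 over all measured genes, and 2 of the 6 were at least 2-fold lower, as were 1.13% of all measured genes. The list is the study's own and was used by it on these libraries, so its direction is no independent evidence. Periostin (Postn, ENSMUSG00000027750, chromosome 3 from 54361109 to 54391037), a matrix protein of healing wounds that binds integrins and collagen, gave 106871 UMIs or 1069 CPM in SC4 (95% Poisson interval 1063 to 1076) and 40428 UMIs or 391 CPM in SC5 (388 to 395). This was 2.73-fold lower in SC5, and the log2 ratio of -1.45 had an interval of -1.47 to -1.43. Asporin (Aspn), a small leucine-rich proteoglycan that binds collagen, stood at 361 CPM in SC4 and 148 in SC5, 2.43-fold lower. The remaining members were less than 2-fold apart. Col1a1, a chain of type I collagen and the main fibre of scar and bone, was at 5316 CPM in SC4 and 2847 in SC5 (log2 ratio -0.90). Col5a1, of the type V collagen that starts those fibrils, was at 467 and 272 CPM (-0.78), and Col3a1, of the type III collagen of early scar, at 4442 and 3001 (-0.57). Sparc (osteonectin), a collagen-binding glycoprotein, was at 6909 and 4360.1 CPM (-0.66). In uninjured SC3 cells Postn stood at 219 CPM and Col5a1 at 256, below both injured libraries. Aspn at 449 CPM and Sparc at 6921 stood above both in SC3. Col1a1 at 3670 CPM and Col3a1 at 3116 stood between them, so that SC5 was below the uninjured level for Aspn, Sparc, Col1a1 and Col3a1.

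The shift in these genes was spread over the cells. To remove differences in depth, each cell was thinned to 5000 UMIs drawn at random, which left out 682 SC4 cells and 457 SC5 cells with fewer UMIs. The median cell held 92 UMIs of the 6 fibrogenic genes in SC4 and 52 in SC5. Percentiles 25 and 75 over cells were 64 and 130 UMIs in SC4 and 32 and 80 in SC5, and 81.4% of SC5 cells lay below the SC4 median. Sparc, Col1a1 and Col3a1, each less than 2-fold apart, make up most of these UMIs, so the sum is mainly a value of these genes. A Postn UMI was found in 90.9% of thinned SC4 cells (exact binomial 95% interval 90.1 to 91.7) and 65.5% of SC5 cells (64.2 to 66.7). An Aspn UMI was found in 70.1% and 42.0%. The distributions overlapped, and cells with few and with many of these UMIs were found in both libraries.

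The 5 mesenchymal progenitor genes went the other way, all 5 higher in SC5, with a median log2 ratio of 0.55 and 0 of them at least 2-fold higher. This list too is the study's own. Cxcl12, a chemokine that holds progenitors and leukocytes in their niche, stood at 288 CPM in SC4 and 535 in SC5, 1.86-fold higher. Ly6a (Sca1), a surface antigen used to sort muscle progenitors, was at 427 and 753 CPM, 1.76-fold higher. Prrx1, the gene whose promoter fragment drives the Cre of these mice, was at 124 and 182 CPM (1.46-fold). Pdgfra, a receptor for platelet-derived growth factors, was at 46.7 and 66.8 CPM (1.43-fold), and Cd34, a sialomucin of progenitors, at 47.3 and 54.7 (1.16-fold). In SC3 the levels were 979 CPM for Ly6a, 689 for Cd34 and 158 for Pdgfra, above both SC4 and SC5, while Prrx1 at 134 lay between them. Summed over the list, the levels were 2332 CPM in SC3, 933 in SC4 and 1591 in SC5. The median thinned cell held 4 UMIs of the 5 genes in SC4 and 7 in SC5.

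**Figure D2:**
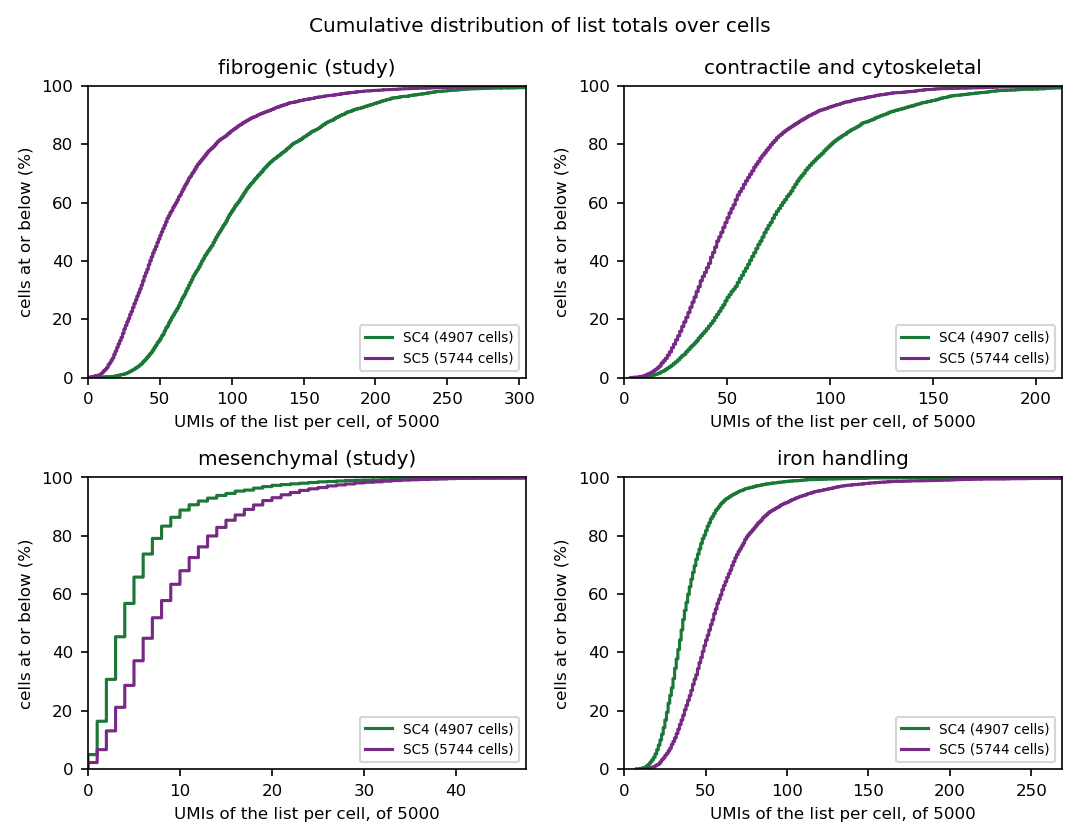
Cumulative share of cells (y axis, percent) at or below a given number of UMIs of a gene list per cell (x axis), after each cell was thinned to 5000 UMIs, for 4907 SC4 cells and 5744 SC5 cells. For the fibrogenic and contractile lists the SC5 curve lies to the left (fewer UMIs per cell), and for the mesenchymal and iron handling lists to the right, and in every panel the curves overlap in range.

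Matrix genes beyond the study's list were lower in SC5 as well. Of 17 matricellular proteins, which tune how cells bind matrix and growth factors, 5 were at least 2-fold lower and 0 higher (median -0.66). Over all measured genes 1.13% were at least 2-fold lower and 1.59% higher. The 5 matricellular genes were Ctgf, Cthrc1, Postn, Cyr61 and Thbs3. Cthrc1, a secreted protein of activated fibroblasts, stood at 1112 CPM in SC4 and 389 in SC5 (2.86-fold lower), and its UMIs were found in 93.8% and 64.9% of thinned cells. In SC3 it was at 47.1 CPM, so that SC5 lay between the uninjured and the d3 post-fracture level. Ctgf (Ccn2) and Cyr61 (Ccn1), both targets of the YAP coactivator, stood at 38.2 and 263 CPM in SC4 and at 11.3 and 123 in SC5. Tenascin-C (Tnc), an anti-adhesive wound matrix protein of the same list, was at 445 and 272 CPM (log2 ratio -0.71). The exception in direction with the largest ratio was osteopontin (Spp1), a secreted phosphoprotein of wounds and bone, at 189 CPM in SC4 and 325 in SC5 (0.78).

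Of 14 fibrillar and associated collagens, 13 had ratios below 0 (median -0.56). Only 1, Col11a1, was at least 2-fold lower, beside 1.13% of all measured genes. Col11a1, which forms the core of cartilage fibrils, was at 37.9 CPM in SC4 and 13.9 in SC5, and Col12a1, a collagen of tendon and fascia surfaces, at 256 and 137. The 17 measured enzymes and chaperones of collagen assembly had a median of -0.31, 15 below 0 and 0 at least 2-fold apart. Among them Loxl2, a cross-linking lysyl oxidase, was at 214 and 125 CPM, and Serpinh1 (HSP47), the procollagen chaperone, at 3199.9 and 2375. Basement membrane genes differed from this pattern. Of 11 measured, 10 lay above 0 (median 0.50), as in Col4a1, of the type IV collagen network, at 18.3 and 27.9 CPM, and Nid1, which links that network to laminin, at 60.2 and 84.9. In SC3 Col4a1 stood at 549 CPM and Nid1 at 458, above SC4 and SC5.

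Among matrix genes with a mean of at least 20 CPM, C1qtnf3, Tnn and Fmod had the smallest ratios. They were picked by their ratios, so a trait that they share is no finding about a group. C1qtnf3 (ENSMUSG00000058914, chromosome 15 from 10952332 to 10980150), a secreted protein first found in cartilage, was at 107 CPM in SC4 and 12.8 in SC5, 8.35-fold lower (log2 interval -3.15 to -2.98), with a UMI in 28.9% and 4.18% of thinned cells. Tnn (tenascin-N or W), a matrix protein of periosteum and bone stroma, was at 87.0 and 14.2 CPM, 6.14-fold lower, with a UMI in 26.8% and 5.31% of cells. In SC3 C1qtnf3 stood at 6.94 CPM and Tnn at 5.28, under both SC4 and SC5. Fibromodulin (Fmod), a tendon proteoglycan, was at 110.1 CPM in SC4 and 32.5 in SC5 but at 1260.3 in SC3. Cilp, an intermediate layer protein of cartilage, was at 128 and 44.2 CPM, and Cpxm2, a carboxypeptidase-like protein, at 48.4 and 17.5. All 6 measured tendon genes lay below 0 (median -0.74), among them tenomodulin (Tnmd) at 38.6 and 22.7 CPM. The others were Kera, Fmod, Thbs4, Egr1 and Tnc. Thbs4 and Tnc are also on the matricellular list and Egr1 is also on the immediate early list, so these lists are not separate results. Aggrecan (Acan), the cartilage proteoglycan, named here after its value was seen, was at 30.8 and 4.85 CPM (6.35-fold lower). Sox9, the transcription factor of chondrocyte fate, was not lower in SC5, at 90.6 and 112 CPM (log2 ratio 0.30).

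Growth factor genes that act on matrix were mixed. Of 18 TGF-beta and activin genes 1 was at least 2-fold lower and 0 higher (median -0.23), beside 1.13% lower over all measured genes. Tgfb3, a ligand of wound and tendon, was at 58.1 CPM in SC4 and 28.2 in SC5, and Tgfb1, the ligand best known in fibrosis, was at 3.62 and 3.098 CPM, under the limit for measured genes. Of 7 Wnt genes, 3 secreted antagonists were at least 2-fold lower, beside 1.13% of all measured genes. Sfrp1 was at 165 and 64.4 CPM, Sfrp4 at 25.1 and 12.1 and Dkk3 at 14.5 and 5.41. The related Sfrp2 was at 329 and 397 CPM, so that the secreted frizzled-related proteins did not share a direction. Igf1, a growth factor that muscle stroma supplies to regenerating fibres, was at 304 and 161 CPM (log2 ratio -0.92).

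Contractile genes were lower in SC5. Of 19 measured, 18 lay below 0 (median -0.61). At least 2-fold lower were 6, beside 1.13% of all measured genes, namely Tagln, Acta2, Myl9, Csrp1, Cnn1 and Tpm2. Acta2 (ENSMUSG00000035783, chromosome 19 from 34241090 to 34255590), the smooth muscle actin that defines myofibroblasts, stood at 774 CPM in SC4 and 252 in SC5, 3.06-fold lower, and was detected in 69.0% and 36.6% of thinned cells. Tagln (transgelin), an actin-binding protein, was at 132 and 42.3 CPM, and Myl9, a regulatory myosin light chain, at 187 and 62.3. Pericytes in the sort also express these 3 genes, and SC3 levels were higher than in either injured library, at 2411 CPM for Acta2, 1177 for Tagln and 1394 for Myl9. The summed level of 8 pericyte markers was 767 CPM in SC3, 74.3 in SC4 and 66.2 in SC5. The near-equal sums hide opposite shifts. Of the 8 markers, Rgs5, Kcnj8 and Abcc9 were lower in SC5, at 24.0, 2.24 and 1.92 CPM in SC4 and 9.97, 0.697 and 0.687 in SC5. Mylk, Des and Cspg4, by which the study defined its pericytes, were higher. They were at 25.5, 12.7 and 3.20 CPM in SC4 and 30.1, 14.03 and 6.05 in SC5. Notch3 and Mcam were at 2.80 and 1.93 CPM in SC4 and 3.03 and 1.62 in SC5. The part of pericytes in the difference was not tested. Cytoplasmic actin (Actb) was at 5114 and 3911 CPM (log2 ratio -0.39) and the glycolytic enzyme Gapdh at 2984 and 3161 (0.08).

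Immediate early genes, which are transcribed within minutes of growth factor or stress signals, were also lower in SC5. Of 22 measured, 18 lay below 0 and 4 were at least 2-fold lower (median -0.38), beside 1.13% of all measured genes. Fos, a subunit of the AP-1 transcription factor, was at 1035 CPM in SC4 and 392 in SC5, and Egr1, a zinc finger factor, at 308 and 118. Dusp1, a phosphatase of MAP kinases, was at 84.4 and 37.2 CPM, and Zfp36 (tristetraprolin), which shortens the life of cytokine mRNAs, at 174 and 77.3. In SC3 the levels were higher than in SC4 for each of these, at 4885, 1651, 381 and 1006 CPM. Such genes are also known to be induced by enzymatic digestion of tissue, a step that the methods describe alike for all samples and whose part was not tested.

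Serum response factor, which binds the CArG box, drives many contractile and immediate early genes. The CArG box was searched on both strands in the 250 bases before the start site of each gene with an entry in the RefSeq promoter table (GRCm38.p6). It was found in 1.47% of 32851 promoters and in 1.45% of the 6481 measured genes with an entry. Among list genes with an entry, 4 of 17 contractile genes (Actg1, Cnn2, Myl9 and Vcl) and 2 of 17 immediate early genes (Egr2 and Zfp36) held it. Only 58 of the 93 genes at least 2-fold lower in SC5 and 96 of the 131 at least 2-fold higher had an entry. The box was found in 4 of these 58 and in 1 of these 96. The motifs were chosen after the ratios were seen, and a match is a description of letters and not of a bound site. The 2 stretches below belong to the genes of those lists that were at least 2-fold lower in SC5, with the CArG box in capitals, 5′ to 3′ on the strand of the gene. Myl9 lies on the plus strand at chr2:156775288-156775372 and Zfp36 on the minus strand at chr7:28379229-28379338.
Myl9: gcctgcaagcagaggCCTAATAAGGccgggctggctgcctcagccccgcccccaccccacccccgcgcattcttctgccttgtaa
Zfp36: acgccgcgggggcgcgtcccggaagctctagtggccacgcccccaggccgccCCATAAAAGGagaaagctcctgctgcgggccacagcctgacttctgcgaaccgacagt

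Genes of heme and oxidant defence were higher in SC5. Of 21 measured genes of the NRF2 and oxidative stress list, 18 lay above 0, 6 were at least 2-fold higher and 0 lower, beside 1.59% higher over all measured genes (median 0.42). Hmox1 (ENSMUSG00000005413, chromosome 8 from 75093621 to 75100589), heme oxygenase 1, gave 8966 UMIs or 89.7 CPM in SC4 (95% interval 87.9 to 91.6) and 45021 UMIs or 436 CPM in SC5 (432 to 439.9). It was 4.86-fold higher in SC5, the log2 ratio of 2.28 had an interval of 2.25 to 2.31, and a UMI was found in 28.9% of thinned SC4 cells and 64.0% of SC5 cells. In the other libraries it stood at 473 CPM in SC3, 78.6 in SC9 and 137 in SC10, so that SC5 and the uninjured library had the highest levels. Slc7a11, the cystine importer that feeds glutathione synthesis, named after its value was seen, was at 3.35 CPM in SC4 and 29.5 in SC5, 8.80-fold higher. It was at 4.82, 0.559 and 2.44 CPM in SC3, SC9 and SC10, and SC5 was highest of the 5 libraries. Srxn1 (sulfiredoxin), which restores oxidized peroxiredoxins, was at 72.3 and 225 CPM and likewise highest in SC5. Both of these genes act on thiols, as do the next ones. Gstm1 and Gsta4, glutathione transferases, were at 22.6 and 3.16 CPM in SC4 and at 61.2 and 9.54 in SC5. In SC3 Gstm1 stood at 579 CPM, above both. Sod2, the mitochondrial superoxide dismutase, was at 127 and 254 CPM, 2.00-fold higher.

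Iron storage genes were higher too. Of 10 iron handling genes 9 lay above 0 (median 0.38), and Hmox1, which is also on this list, was the only one at least 2-fold higher, beside 1.59% of all measured genes. Ferritin heavy chain (Fth1) was at 3587 CPM in SC4 and 6007 in SC5, 1.67-fold higher, and ferritin light chain (Ftl1) at 3857 and 5289, 1.37-fold. In SC3 Fth1 stood at 4085 CPM, between SC4 and SC5, and Ftl1 at 6035, above them. Both ferritins have many processed pseudogenes, so their counts carry some uncertainty of read assignment. Summed over the list the median thinned cell held 36 UMIs in SC4 and 54 in SC5, and 81.5% of SC5 cells lay above the SC4 median. Fth1 and Ftl1 make up most of this sum, since every other member was at 436 CPM or less in both libraries. The sum is thus mainly a ferritin value. Red cell markers did not differ in the same direction, with a summed level of 40.1 CPM in SC4 and 33.7 in SC5 over 6 genes. Pgls, an enzyme of the pentose phosphate pathway that supplies NADPH, was at 25.5 and 79.2 CPM, but at 151 in SC9 and 256 in SC10.

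Both surface receptors of the protein C pathway, in which thrombin bound to thrombomodulin activates an anticoagulant, were higher in SC5. Thrombomodulin (Thbd, ENSMUSG00000074743, chromosome 2 from 148404466 to 148408188) was at 53.2 CPM in SC4 and 222 in SC5, 4.18-fold higher, and was detected in 19.8% and 48.7% of thinned cells. Procr, the endothelial protein C receptor, was at 34.7 and 107 CPM, 3.08-fold higher, and was detected in 11.5% and 29.7%. In SC3 Procr stood at 306 CPM, above SC4 and SC5, and Thbd at 138, between them. Both are best known in endothelium. Of the 8 endothelial markers only Egfl7 had a mean of at least 5 CPM, at 5.61 in SC4 and 11.1 in SC5, and Pecam1 and Cdh5, which define endothelium, were at 0.75 and 0.59 CPM in SC4 and at 1.61 and 1.16 in SC5. The markers did not share a direction. Kdr, Tek and Cldn5 were at 0.70, 1.23 and 0.01 CPM in SC4 and 0.81, 1.43 and 0.24 in SC5. Emcn and Esam were lower in SC5, at 0.37 and 1.37 CPM in SC4 and 0.24 and 0.99 in SC5. The part of endothelial cells in the difference was not tested. The 12 other measured genes of coagulation and fibrinolysis were less than 2-fold apart. Over all measured genes 1.59% were at least 2-fold higher.

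**Figure D3:**
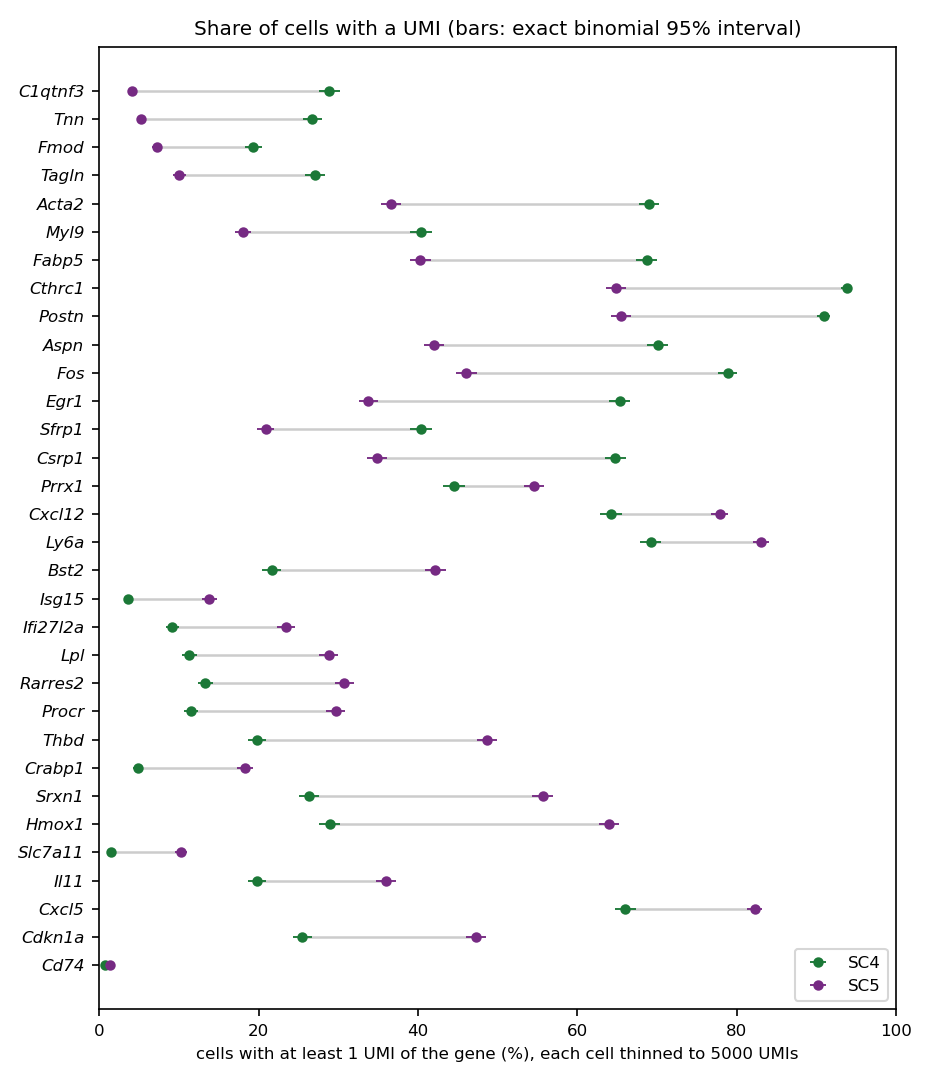
Share of cells with at least 1 UMI of a gene (x axis, percent) after each cell was thinned to 5000 UMIs, in SC4 (green) and SC5 (purple), with exact binomial 95% intervals. Matrix and contractile genes at the top were found in more SC4 cells (Acta2 69.0% and 36.6%), genes from Prrx1 down in more SC5 cells (Hmox1 28.9% and 64.0%), and Cd74 in under 2% of either.

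Interferon-stimulated genes were higher in SC5, with a median log2 ratio of 0.93. Of 13 measured, 12 lay above 0 and 6 were at least 2-fold higher in SC5, beside 1.59% of all measured genes. Isg15, a ubiquitin-like protein, was at 13.2 CPM in SC4 and 48.1 in SC5 (3.64-fold), and Bst2 (tetherin), which holds budding virus at the cell surface, at 56.9 and 163 (2.86-fold). Ifi27l2a, a mitochondrial protein of this response, was at 43.2 and 134 CPM, and Irf7, the transcription factor that amplifies type I interferon, at 4.75 and 25.6 CPM (5.38-fold). Oasl2 and Ifit1, which act on viral RNA, were at 4.14 and 2.66 CPM in SC4 and at 14.7 and 9.30 in SC5. A UMI of Isg15 was found in 3.61% of thinned SC4 cells and 13.8% of SC5 cells, and one of Bst2 in 21.6% and 42.2%. Beta-2 microglobulin (B2m), the light chain of MHC class I, was at 349.6 and 526 CPM (log2 ratio 0.59), while Irf1, a target of interferon gamma, lay below 0 at 12.2 and 6.84. SC3 levels were above SC4 for Isg15 (107 CPM), Bst2 (103) and Ifit1 (31.9), so that SC4 was lowest of SC3, SC4 and SC5 for these 3.

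The interferon-stimulated response element, searched on both strands by its core (GAAA, then 2 bases of any kind, then GAAA) in the same 250 bases, was found in 2.98% of all promoters. It was found in 3.13% of the 6481 measured genes with an entry and in 5 of 11 interferon-list genes with an entry (B2m, Bst2, Gbp2, Ifit1 and Isg15). Of genes with an entry, it was found in 8 of the 96 at least 2-fold higher in SC5 and in 3 of the 58 at least 2-fold lower. The 3 stretches below run 5′ to 3′ on the strand of the gene up to its start site and show the list members that were at least 2-fold higher. The core is in capitals for matches that do not overlap. Ifit1 carries it on the opposite strand, so that it reads there as TTTC, 2 bases and TTTC. Isg15 is on the minus strand at chr4:156200819-156200928, Ifit1 on the plus strand at chr19:34640770-34640888 and Bst2 on the minus strand at chr8:71537473-71537617.
Isg15: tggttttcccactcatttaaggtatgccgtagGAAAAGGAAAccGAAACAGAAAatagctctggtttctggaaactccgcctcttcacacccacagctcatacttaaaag
Ifit1: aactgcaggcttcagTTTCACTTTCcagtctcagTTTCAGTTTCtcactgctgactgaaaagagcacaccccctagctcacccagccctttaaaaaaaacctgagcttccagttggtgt
Bst2: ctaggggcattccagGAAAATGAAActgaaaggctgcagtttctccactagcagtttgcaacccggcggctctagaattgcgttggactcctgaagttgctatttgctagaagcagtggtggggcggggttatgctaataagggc
Counted without overlap, Isg15 and Ifit1 each held 2 copies within these stretches, and Bst2 held 1. Isg15 and Bst2 also hold a core that overlaps a marked one and is not fully in capitals. The core of the antioxidant response element, TGACNNNGC, was found in 10.2% of all promoters. Of the 6481 measured genes with an entry, 905 held this core. It was found in 5 of 16 NRF2-list genes with an entry (G6pdx, Gclm, Mgst1, Prdx1 and Txnrd1), none of which was at least 2-fold higher. Of genes with an entry, 13 of the 96 at least 2-fold higher in SC5 held it. So did 4 of the 58 at least 2-fold lower.

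Chemokines did not share a direction, while the cytokines at least 2-fold apart were higher in SC5. Of 10 CXC chemokines 3 were at least 2-fold higher in SC5 and 0 lower, beside 1.59% higher and 1.13% lower over all measured genes. Cxcl5 and Cxcl3, which draw neutrophils through Cxcr2, were at 877 and 48.1 CPM in SC4 and at 1772 and 122 in SC5. The other attractants of this kind did not follow, with Cxcl1 at 3748 and 2881 CPM (log2 ratio -0.38) and Cxcl2 at 630 and 691 (0.13). Cxcl9, an interferon gamma target that draws T cells, was at 2.64 and 10.9 CPM, while Cxcl10, another such target, was at 110 and 117 (log2 ratio 0.09). Of 8 CC chemokines 1 was at least 2-fold higher and 1 lower. Ccl11 (eotaxin), which draws eosinophils, was at 30.2 CPM in SC4 and 70.8 in SC5, and Ccl20, a ligand of Ccr6, at 46.4 and 13.9. In SC3 Ccl11 stood at 1351 CPM, above both, and Ccl20 at 0. The log2 ratio of Ccl11, 1.23, was 0.56 with each cell weighted equally. The CC family was split. Ccl7, a monocyte chemokine, was at 1989 and 1154 CPM (log2 ratio -0.79). Among 16 cytokines and receptors, Csf1, the macrophage growth factor, was at 27.7 and 73.6 CPM, Csf3, the neutrophil growth factor, at 7.37 and 25.5, and Il11, a cytokine of stromal cells, at 103 and 217. These 3 were at least 2-fold higher in SC5 and 0 were 2-fold lower. Il33, an alarmin of fibro-adipogenic progenitors, was at 82.6 and 157 CPM (log2 ratio 0.93). Lif, also among the 16 cytokines and receptors, was lower in SC5, at 54.9 and 31.8 CPM (log2 ratio -0.79). Ereg (epiregulin), a ligand of the EGF receptor, was at 18.3 and 42.8 CPM. Hbegf, another such ligand, was lower in SC5, at 209 and 120 CPM (log2 ratio -0.81).

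Genes of low oxygen and of amino acid stress were modestly higher. Of 17 hypoxia-induced genes 13 lay above 0. At least 2-fold higher was 1, Egln3, an oxygen-sensing prolyl hydroxylase (2.78 and 12.7 CPM), beside 1.59% of all measured genes. Most members were less than 2-fold apart. Bnip3, a mitophagy receptor, was at 75.3 and 120.0 CPM, Vegfa, the angiogenic factor, at 17.1 and 23.5, and Hif1a, whose protein rather than mRNA responds to oxygen, at 181 and 156. Of 17 glycolysis genes 15 lay above 0 and 0 were 2-fold apart (median 0.18), with Slc2a1, the glucose transporter GLUT1, at 73.7 and 105 CPM and Pgk1, phosphoglycerate kinase, at 696 and 864. Of 17 genes of the integrated stress response 3 were at least 2-fold higher (Chac1, Vldlr and Sesn2), beside the same 1.59%. Chac1, which degrades glutathione, was at 2.19 and 10.8 CPM, Atf4, the factor that drives this response, at 299.6 and 416 (1.39-fold), and Ddit3 (CHOP) at 25.8 and 45.8. Angptl4, a hypoxia and lipid target, differed in direction from these, at 396 and 221 CPM. So did Atf3, a member of the integrated stress response list, at 150 and 95.6 CPM (log2 ratio -0.65).

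Some of the genes named for their large ratios bind or respond to retinoids or handle lipids. Crabp1, a carrier of retinoic acid in the cytoplasm, was at 13.98 CPM in SC4 and 84.3 in SC5, 6.03-fold higher and the largest ratio among genes of at least 20 CPM. Rarres2 (chemerin), a secreted attractant of macrophages that retinoids induce, was at 34.9 and 140.2 CPM (4.02-fold), and Gprc5a, a receptor-like protein that retinoic acid induces, at 10.6 and 39.8 (3.77-fold). These 3 genes were picked by their ratios, so their shared direction is no finding about a group. Lpl, the lipase that frees fatty acids from lipoproteins, was at 24.7 and 75.8 CPM (3.07-fold higher), while Fabp5, a fatty acid carrier, was at 659 and 212 (log2 ratio -1.63). The same 5 genes had different levels before injury, since Rarres2 stood at 693 CPM and Lpl at 371 in SC3, above SC5, while Crabp1 stood at 16.9, Gprc5a at 14.5 and Fabp5 at 11.3, all below SC5. Crabp1 was at 4.90 CPM in SC9 and 78.0 in SC10, so its high levels were those of SC5 and SC10. Penk (proenkephalin), an opioid peptide precursor also made by fibroblasts, was at 46.7 and 139 CPM, and Ddah1, which degrades inhibitors of nitric oxide synthase, at 55.7 and 15.6.

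The protein-making and energy machinery showed small shifts shared by most members. Of 82 ribosomal protein genes 68 lay above 0, with a median of 0.16 and none beyond 0.28 upward, and their summed level was 311895 CPM in SC4 and 342239 in SC5. Of 15 ribosome biogenesis genes 13 lay above 0 (median 0.23). Nuclear-encoded subunits of respiratory complex I lay below 0 in 34 of 36 genes (median -0.17), those of ATP synthase in 13 of 15 (-0.19), proteasome genes in 31 of 37 (-0.18) and chaperones of the endoplasmic reticulum in 18 of 23 (-0.18). CPM are relative, so a larger ribosomal share leaves a smaller share for other genes, and its part in these medians was not tested. Some isoforms of respiratory chain subunits stood apart from these lists, at least 2-fold higher in SC5. Ndufa4l2, a hypoxia-induced paralog of Ndufa4, was at 112 and 324 CPM (2.91-fold higher). Cox4i2 and Cox7a1, isoforms of cytochrome c oxidase subunits named after their values were seen, were at 3.52 and 1.66 CPM in SC4 and at 22.3 and 11.0 in SC5.

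**Figure D4:**
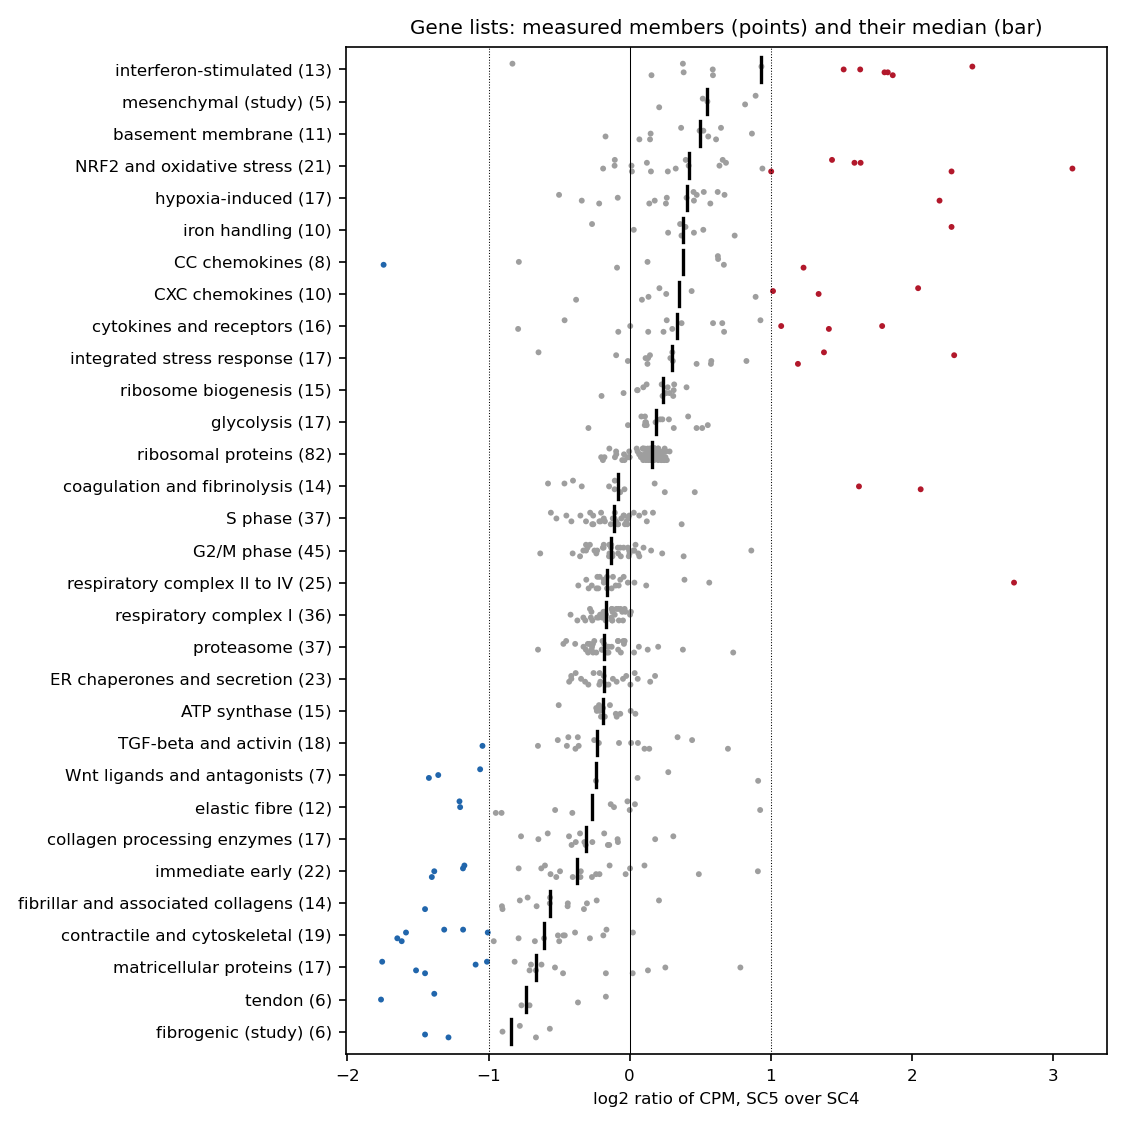
Log2 ratio of CPM, SC5 over SC4 (x axis), of each measured member (points) and the median (black bar) of the gene lists described (y axis, with the number of members measured). Red and blue points are at least 2-fold higher and lower in SC5. Interferon-stimulated genes have the highest median of the lists plotted (0.93) and the fibrogenic genes the lowest (-0.84), while ribosomal proteins form a narrow band near 0.16.

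Slightly fewer SC5 cells were called in cycle. In thinned cells, 65.4% of SC4 (95% interval 64.1 to 66.8) and 69.8% of SC5 (68.6 to 70.9) were called G1, 11.9% and 9.30% S phase, and 22.7% and 20.9% G2/M. Of 37 S-phase genes 31 lay below 0 and of 45 G2/M genes 35 (medians -0.11 and -0.13), and 0 of either were 2-fold apart. Cdk1, the kinase that starts mitosis, was at 99.9 and 64.4 CPM. Cdkn1a (p21), which arrests the cycle downstream of p53, was at 84.4 CPM in SC4 and 187 in SC5 (2.21-fold higher), with a UMI in 25.5% and 47.3% of thinned cells, and Mdm2, another p53 target, at 52.1 and 83.1 CPM. SC3 held 829 CPM of Cdkn1a and 1.03 of Cdk1.

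Hematopoietic marker genes were higher in SC5. Of these, Cd74 was detected in 0.73% of thinned SC4 cells and 1.32% of SC5 cells. Lyz2 (lysozyme) was at 10.7 CPM in SC4 and 32.9 in SC5, Cd74, the MHC class II chaperone, at 8.28 and 46.5, and Tyrobp and Fcer1g, adaptors of immune receptors, at 2.48 and 3.01 CPM and at 14.3 and 11.3. These 4 of the 12 hematopoietic markers had a mean of at least 5 CPM over SC4 and SC5, and Ptprc (CD45) stood under 1 CPM in both libraries. Cells with at least 2 hematopoietic markers held 86.5% of Cd74 UMIs in SC4 and 96.2% in SC5. Cd74, Lyz2, Tyrobp and Fcer1g are among the markers that define these cells. Such shares, and lower marker levels without the cells, follow in part from that definition. Without those cells the log2 ratio of Cd74 was 0.69 instead of 2.49 and the markers summed to 6.31 CPM in SC4 and 9.91 in SC5. Fcer1g went from 1.91 to 0.21 and Lyz2 from 1.62 to 1.003, while Tyrobp went from 2.52 to 2.75, so that Lyz2 and Tyrobp were still at least 2-fold higher. All 4 were then at 2.53 CPM or less in both libraries. The MHC class II gene H2-Eb1 went from 1.85 to 0.54 in the same way, while H2-Ab1 went from 2.48 to 2.55 and was detected in 1.43% and 6.51% of thinned cells. H2-Aa went from 2.31 to 2.39 but was detected in only 0.0408% and 0.54%. Other genes described above kept log2 ratios near those with all cells, at -1.45 for Postn, 2.30 for Hmox1, 1.85 for Isg15 and 2.07 for Thbd. The marked cells also carried the genes of the sorted lineage. A Postn UMI was found in 42 of 53 such thinned cells in SC4 (79.2%) and 80 of 133 in SC5 (60.2%), beside 91.1% and 65.6% of the other cells at like depth, with medians of 18584 and 15854 UMIs in marked and 19276.5 and 16374 in other cells. No background share of free RNA was measured, and leukocytes, doublets and free RNA in these droplets cannot be told apart. Apoe and Lgals3, which macrophages express strongly, were at 23.5 and 37.4 CPM and at 172 and 314, and their log2 ratios of 0.67 and 0.87 became 0.50 and 0.79.

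**Figure D5:**
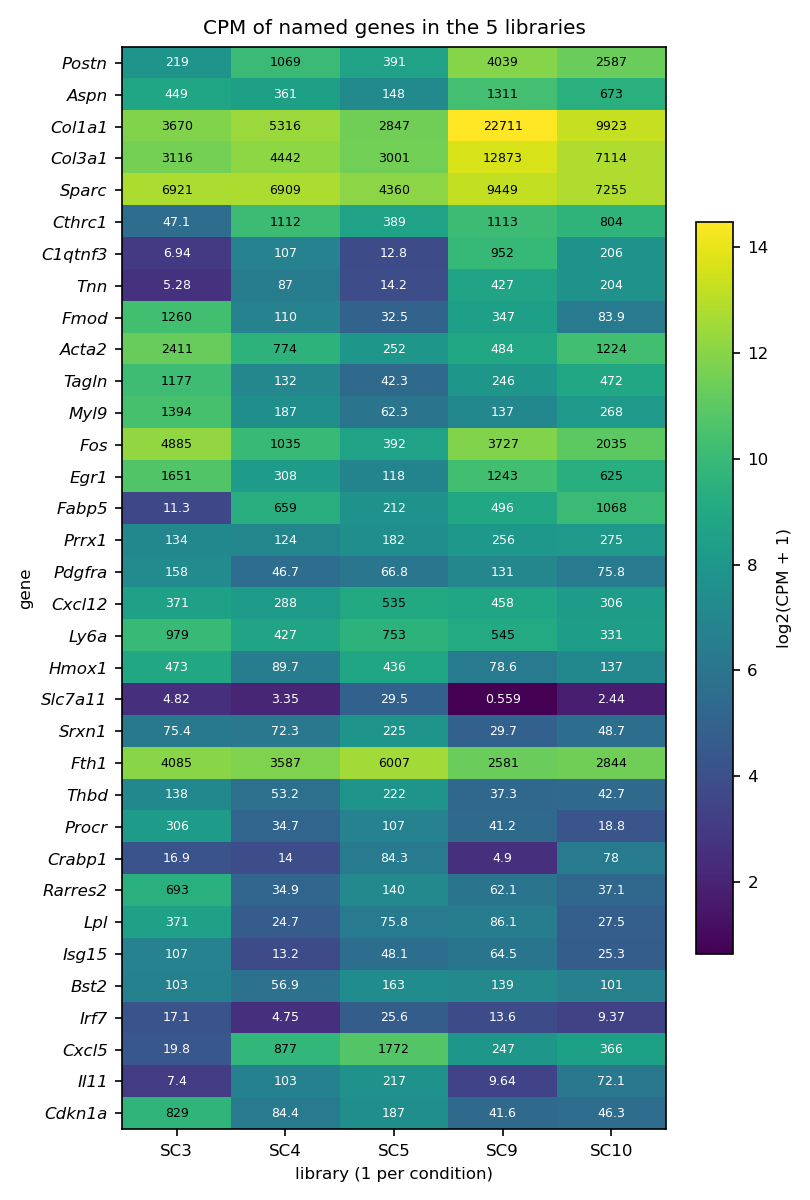
CPM (numbers) of genes described above (rows) in the 5 libraries (columns), coloured by log2(CPM + 1). SC3 is uninjured, SC4 is d3 post-fracture, SC5 is labelled d5 post-fracture and placed at d3 post-polytrauma by the study's cell numbers, SC9 is labelled d3 post-polytrauma and SC10 is d5 post-polytrauma. Matrix genes such as Postn and Col1a1 are highest in SC9 and lowest among injured libraries in SC5, and Slc7a11 and Srxn1 are highest in SC5.

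With the conditions as deposited, d3 post-polytrauma is SC9 and many differences turn around. The 6 fibrogenic genes summed to 18565 CPM in SC4, 11020.1 in SC5 and 51477 in SC9, and their median log2 ratio of SC9 over SC4 was 1.70. The mesenchymal genes were higher in SC9 as in SC5, with a median of 1.05. In that contrast 3099 genes were at least 2-fold higher and 385 lower, and the median over all 9279 genes with a mean of at least 5 CPM was 0.55, so that a gene at the median of SC9 over SC4 already stands above 0. Postn was at 4039 CPM in SC9, C1qtnf3 at 952 and Acan at 681, above SC4, while Hmox1 at 78.6, Srxn1 at 29.7 and Cxcl5 at 247 were below SC4. These SC9 values rest on 1468 retained cells. Of those cells 59.2% carried a barcode also found in another library, against 2.43% in SC4 and 4.03% in SC5. SC9 cells were deeper than SC4 cells, with a median of 34949 UMIs against 17963, and Tgfb1 stood at 49.3 and 59.3 CPM in SC9 and SC10 against 6.77, 3.62 and 3.098 in SC3, SC4 and SC5. Of the chondrogenic genes of the study, Col2a1, the collagen of cartilage, stood at 1525 CPM in SC9 and 78.1 in SC10 against 7.80 in SC3, 0.870 in SC4 and 0.106 in SC5. If SC9 is d5 post-fracture, as the barcode numbers have it, the contrast of SC9 with SC4 is one of time. In the contrast of SC9 with SC4, injury, time point and these differences between the 2 sets of libraries cannot be told apart.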

How the data were processed

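Per the labels, GFP+ cells of Prx1Cre;mTmG mice were sorted and libraries were made with a Chromium Single Cell 3′ v.2 kit. The authors used mm10 as the genome and Cell Ranger for UMI counting (version 3.1.0 in the matrix headers), and deposited whole-number UMI counts per gene and barcode for 5 libraries, with no normalization. The label conflict of SC5 is described above, and samples were grouped by library.

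For each library, counts of all cells that passed the limits were added up per gene and expressed as CPM (Python 3.11.15, scipy 1.17.1, pandas 2.3.3). Genes with a mean of at least 5 CPM were measured. Log2 ratios have exact conditional 95% intervals, and shares have exact binomial ones. UMI counts exclude PCR copies, but intervals cover counting error only. Retained totals were 17437190 to 202233564 UMIs per library. Cell-cycle phase and Scrublet scores came from scanpy 1.11.5. Scrublet called 1 and 0 doublets, which is too few to have worked, so doublets were kept and the highest-scoring 250 SC4 and 308 SC5 cells were left out as an alternative. The ratio script was tested on simulated counts. Gene positions came from GENCODE M21 (GRCm38), which lists 99.9% of identifiers, and promoters from RefSeq.

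Named genes were the 15 with the largest and the 15 with the smallest ratios at a mean of at least 20 CPM, all members of the 2 lists of the study, up to 4 genes in each of the other lists, the name-giving members, and genes of particular role chosen after their values were seen, among them genes at least 2-fold apart within a list. The members and the 64 lists were chosen with earlier results of these data known. Alternatives covered scaling, gene and cell filters, weighting, depth and the labels.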

Additional observations from a re-analysis of the deposited data

How the results depend on the processing

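Of 11 alternatives, 10 kept SC5 over SC4, and under those 10 no list median and no named gene at least 2-fold apart changed sign. Other gene filters moved the counts of genes at least 2-fold apart most, to 1499 higher and 1169 lower with no filter beyond 1 UMI in each library and to 46 and 44 at a mean of at least 20 CPM. Elsewhere among the 10 the counts were 122 to 161 higher and 87 to 129 lower, and the fibrogenic median was -0.84 to -0.77. Thinning cells to 5000 UMIs gave a mesenchymal median of 0.45. In G1 cells alone the Postn share differed by -21.5 percentage points in place of -25.5. Under 1 or more of these, 10 of 81 named genes were no longer 2-fold apart. Without cells carrying hematopoietic markers these were Cd74 (0.69), H2-Eb1 (0.54) and Fcer1g (0.21). Cd74 and Fcer1g are among the markers that define those cells. Ccl11 was at 0.56 to 0.95 under 3 alternatives, and the others were at least 0.92 in size (Sod2, Cdkn1a, Tgfb3, Thbs3, Tpm2 and Cnn1). No paired analysis was possible because each condition had 1 library, and for the same reason no replicate could be left out. Depth limits single cells, where a gene at 5 CPM gives a UMI in few thinned cells. With SC9 over SC4 in place of SC5 over SC4, 3099 genes were at least 2-fold higher and 385 lower, the fibrogenic median was 1.70 in place of -0.84 and the mesenchymal median 1.05 in place of 0.55, and the cause was not tested. Of the 54 named genes that reversed there, log2 ratios were above 0 for Postn 1.92, Aspn 1.86, C1qtnf3 3.15, Tnn 2.30, Ddah1 0.90, Fmod 1.65, Ctgf 2.16, Tagln 0.89, Cilp 0.19, Cthrc1 0.0012, Cpxm2 2.26, Col11a1 4.59, Fos 1.85, Egr1 2.01, Dusp1 3.42, Zfp36 2.27, Tgfb3 0.70, Sfrp1 2.70, Acan 4.47, Cyr61 1.41, Thbs3 1.56, Cnn1 0.92, Dkk3 2.36, Sfrp4 3.22, Mmp13 2.55, Fbn2 1.37 and Mfap4 1.09, and below 0 for Crabp1 -1.51, Cd74 -2.58, Hmox1 -0.19, Thbd -0.51, Gprc5a -3.85, Srxn1 -1.28, Lyz2 -0.47, Ndufa4l2 -0.42, Slc7a11 -2.58, Sod2 -0.89, Cxcl5 -1.83, Cxcl3 -4.60, Csf3 -2.80, Il11 -3.42, Ereg -3.15, Cdkn1a -1.02, Chac1 -2.74, Egln3 -1.59, Cox7a1 -0.38, H2-Ab1 -0.48, H2-Aa -1.56, H2-Eb1 -1.502, Tyrobp -0.99, Gsta4 -0.0176, Sesn2 -0.67, Hmga2 -0.19 and Areg -2.75. Of the 18 list medians that reversed, those above 0 were fibrillar and associated collagens 1.51, collagen processing enzymes 0.14, matricellular proteins 0.68, tendon 0.97, elastic fibre 0.94, immediate early 1.89, TGF-beta and activin 0.97, Wnt ligands and antagonists 2.21 and G2/M phase 0.27, and those below 0 were NRF2 and oxidative stress -0.21, CXC chemokines -0.12, CC chemokines -1.78, cytokines and receptors -0.58, hypoxia-induced -0.60, glycolysis -0.80, integrated stress response -0.52, ribosomal proteins -0.83 and ribosome biogenesis -0.71.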

Other observations

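Gene groups not described above also differed between SC5 and SC4. All 5 measured genes of metal binding and zinc transport lay above 0, with a median log2 ratio of 0.39. The metallothioneins Mt1 and Mt2, which buffer zinc and copper, stood at 3032 and 2734 CPM in SC4 and at 4268 and 3584 in SC5. Their SC3 levels were above both, at 11532.5 and 6157.5 CPM. Among 14 metalloproteinases and inhibitors 1 was at least 2-fold lower, beside 1.13% of all measured genes. Mmp13, a collagenase of callus, was at 17.4 CPM in SC4 and 6.99 in SC5, and Timp1, an inhibitor of such enzymes, at 2717 and 1959. Of 12 elastic fibre genes 2 were at least 2-fold lower. Fbn2 (fibrillin-2) was at 71.8 and 31.2 CPM and Mfap4, a microfibril protein, at 154 and 66.8, while Efemp1 (fibulin-3) was at 37.2 and 70.6.

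Some single genes were chosen after their values were seen. Hmga2, a chromatin protein of embryonic and regenerating mesenchyme, was at 4.84 CPM in SC4 and 26.6 in SC5, 5.50-fold higher, and at 0.401 CPM in SC3. Dlk1, an inhibitor of adipogenesis, was at 2.40 and 10.9 CPM. Notch1, a receptor of cell contact signals, was at 5.09 and 13.9 CPM, while the 3 other measured Notch genes were less than 2-fold apart. Areg (amphiregulin), an EGF receptor ligand of muscle repair, was at 5.19 and 15.5 CPM, and Igfbp3, which binds insulin-like growth factors, at 13.9 and 33.4. Saa3, an acute phase protein, was at 80.2 and 153 CPM (log2 ratio 0.93). Other genes of the acute inflammation list did not share a direction. Lcn2 and Ptges were higher in SC5, at 11.3 and 29.8 CPM in SC4 and 28.2 and 50.4 in SC5. Nfkbia and Tnfaip3 were lower in SC5, at 985 and 28.5 CPM in SC4 and 603 and 15.4 in SC5. None of these genes was tested, since each condition had 1 library.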
